A study of Harpegnathos saltator with 37 samples.

Results

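The 6 genes described here encode proteins of the insect cuticle and were measured in central brain libraries of the ponerine ant Harpegnathos saltator. They were taken by their gene symbols, as apd-3l (LOC105189609), CPR1 (LOC105180609), CPR5 (LOC105188602), Cpr97Ea (LOC105188032), Cpap3-b (LOC105191833) and Cpap3-d (LOC105191836), and they are 6 of the 14001 genes in the table. The genes were chosen by symbol with measured values known. CPR1 had been selected on its level in duelers against workers at day 10, and apd-3l, Cpr97Ea and Cpap3-d for their levels in day 120 hunting workers against day 10 workers. How Cpap3-b and CPR5 came to be chosen was not recorded, and they are treated as chosen with values known. Dominant gamergates at day 120 against day 10 duelers, and late pupae against day 10 workers, also served to choose members. All these contrasts are therefore given as description, with no test. Each gene reached 1 FPKM (fragments scaled to gene length and to the reads of the library) in at least 4 libraries and so passed the filter on low values. The number of such libraries was 20 for apd-3l, 11 for Cpr97Ea, 10 for Cpap3-d, 7 for Cpap3-b, 26 for CPR1 and 37 for CPR5, so that apd-3l, Cpr97Ea, Cpap3-d and Cpap3-b passed through the groups where they were high.

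The 37 RNA libraries fell into 7 groups. They were late pupae (n = 4), duelers at day 10 (n = 5), workers at day 10 (n = 4), gamergates at day 20 (n = 5), workers at day 20 (n = 4), dominant gamergates at day 120 (n = 6) and hunting workers at day 120 (n = 9). Days count from the move of 25 callow females, 5 days old, with 3 males into a nest that held neither queen nor gamergate. In such nests some females fight ritual duels and become gamergates, which are workers that mate and lay eggs, and at day 120 gamergates were recognised by mature oocytes. Hunting was scored after day 100, so the day 120 workers had been selected for a behaviour that the younger workers had not been scored for. The pupae carry no day or caste other than pupa. No strain or genetic change was given in the labels, nor is it said whether replicates of 1 group stem from different nests.

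Insect cuticle is a layer of chitin fibres and proteins that epidermal cells lay down over the body surface, the foregut and hindgut, and the tracheae that carry air into every organ, the brain among them. Proteins of the CPR family bind chitin through the Rebers and Riddiford consensus. Cpap3 proteins, whose name stands for cuticular proteins analogous to peritrophins, bind it through several peritrophin-type domains. Apidermins are small hydrophobic cuticular proteins first described in the honey bee. Neurons and glia are not known to build cuticle.

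The libraries held 9.2 to 55.78 M recovered gene reads. The labels' internal references hold a batch number that goes with a date and flow cell code. The labels do not say what it stands for, and it is here called a run. Both day 10 groups shared 1 such number, both day 20 groups another and the pupae a further one, while each day 120 group was spread over a pair of numbers. Age or stage and run cannot be told apart, whereas castes of 1 day shared runs. The 12 neuron markers summed to between 400 and 1517 FPKM in every library, and none of them was at 0 throughout. The 9 libraries of day 10 did not form a narrow group. In 6 of them, 3 dueler and 3 worker libraries, apd-3l stood at 6731 FPKM or more, and in the other 3 it stood at 111 FPKM or less.

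apd-3l, an apidermin-like gene by its symbol, spanned the widest range of the 6. Across the 4 late pupae it was listed at 0, 50.4, 1.05 and 0.17 FPKM. The 5 day 10 duelers had 6731, 16.6, 9347, 9475 and 66.2 FPKM, and the 4 day 10 workers had 7267, 8151, 26806 and 111 FPKM. Each group thus held libraries that were more than an order of magnitude apart, and the castes overlapped. At day 20 the gamergates had 6.85, 2953, 72.7, 1573 and 1439 FPKM, and the workers had 47.8, 98.1, 8.79 and 949 FPKM. At day 120 the level was near 0 in both castes. The dominant gamergates had a lowest value of 0, a median of 0 and a highest of 0.483 FPKM, with no read in 4 of the 6 libraries. The hunting workers ran from 0 through a median of 0.153 to 0.721 FPKM, with no read in 1 of the 9 libraries.

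At its highest, in day 10 worker replicate 3, apd-3l took 957341 of 19626888 gene reads, or 4.88% of the library (95% Wilson interval 4.87% to 4.89%, which covers counting error only). Its share was 2.22% in day 10 dueler replicate 4 and 1.54% in day 10 worker replicate 1. Ranked per length by FPKM, it was the highest gene of all in 2 libraries, day 10 dueler replicate 3 and day 10 worker replicate 1, and the second highest in 5 others. In day 10 dueler replicate 2, which carries the same run number, it had 904 reads, or 0.00394% of the library.

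**Figure D1:**
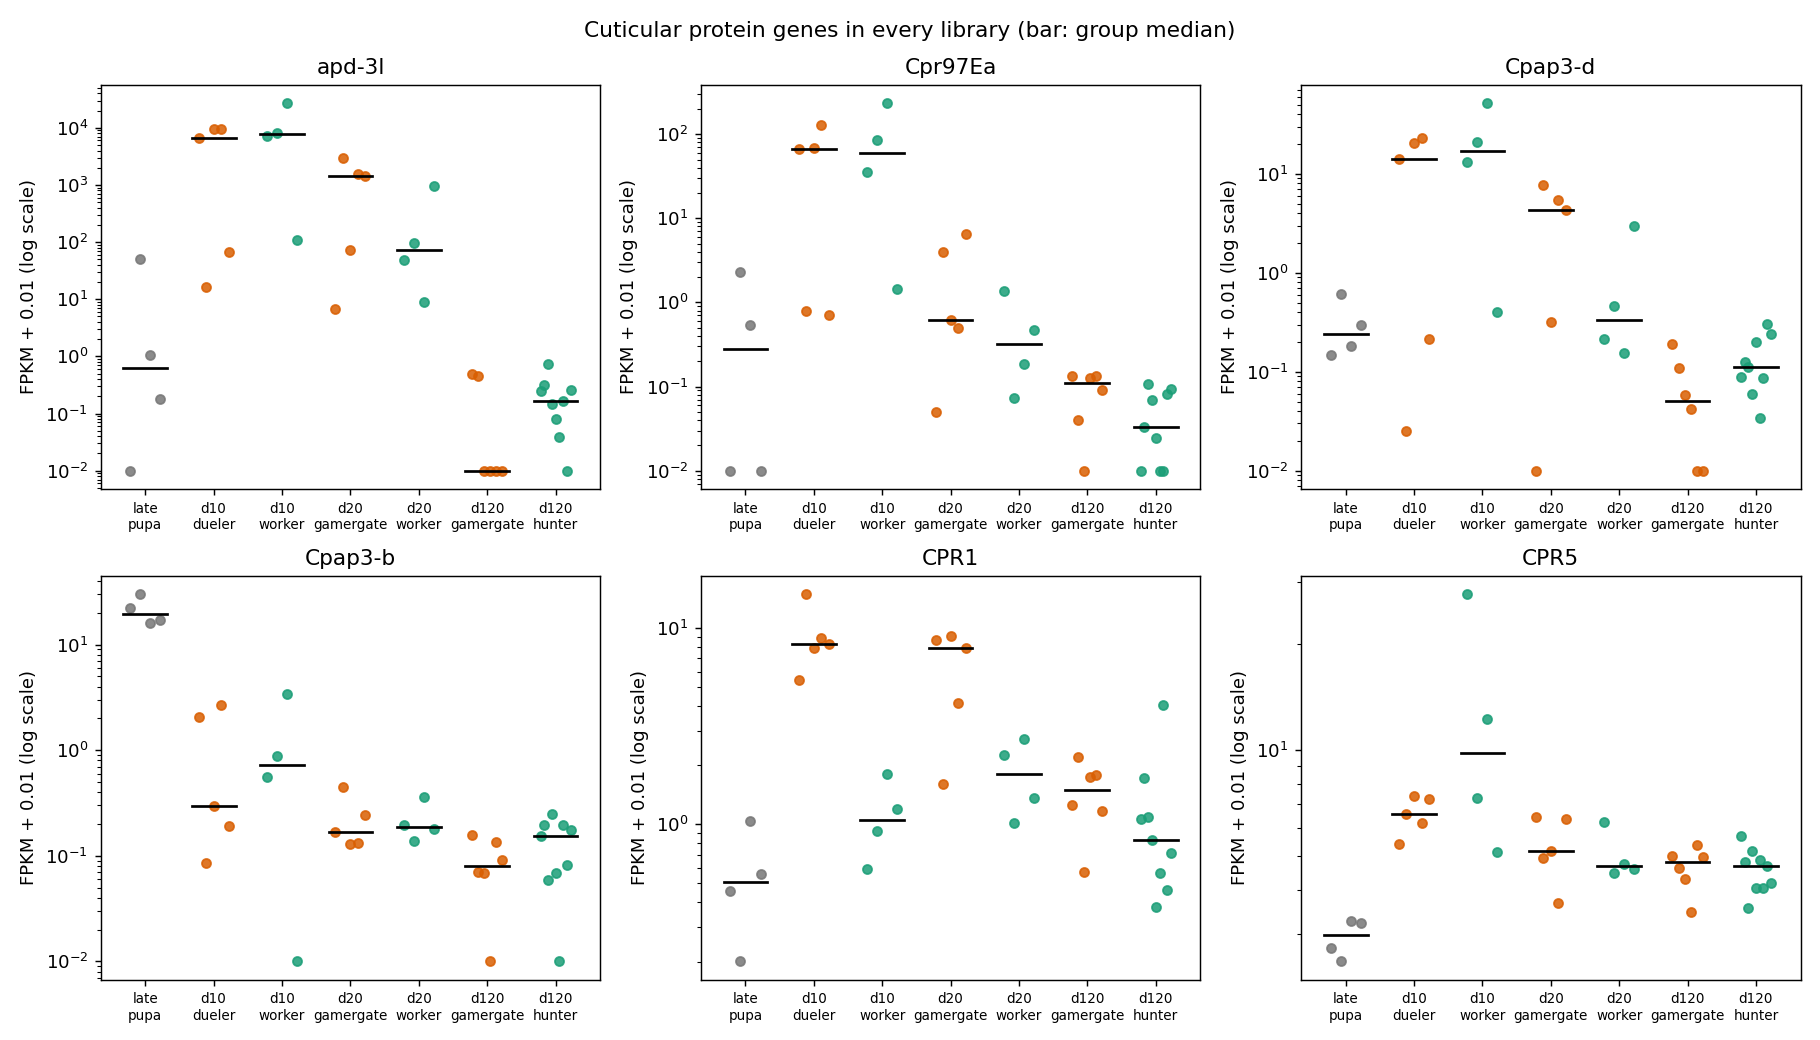
FPKM plus 0.01, on a log axis, of the 6 cuticular protein genes in each of 37 libraries (points) with the group median (bar); d10, d20 and d120 are days 10, 20 and 120, and orange marks duelers and gamergates, green workers. apd-3l, Cpr97Ea and Cpap3-d each show 3 low libraries among the 9 of day 10 and values near 0 at day 120, Cpap3-b is high in the pupae, and CPR1 is higher in duelers than in workers at day 10.

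Cpr97Ea, named after a Drosophila gene of the CPR family, was at 65.9, 0.78, 69.2, 128 and 0.70 FPKM in the day 10 duelers. The day 10 workers had 35.2, 85.1, 233 and 1.44 FPKM. The duelers and workers with little apd-3l were also those with little Cpr97Ea. At day 20 the gamergates had 0.04, 4.00, 0.61, 0.48 and 6.53 FPKM and the workers 1.35, 0.06, 0.18 and 0.45 FPKM. The highest day 20 value, 6.53 FPKM, was thus far below the highest in either day 10 group. The late pupae had 0, 2.28, 0.53 and 0 FPKM, and no day 120 library exceeded 0.124 FPKM, which came from at most 5 reads.

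Cpap3-d, a Cpap3 gene by its symbol, was at 14.2, 0.02, 20.3, 23.2 and 0.20 FPKM in the day 10 duelers and at 13.1, 20.8, 51.7 and 0.39 FPKM in the day 10 workers. The day 20 gamergates had 0, 7.66, 0.31, 5.45 and 4.25 FPKM, and the day 20 workers had 0.20, 0.45, 0.15 and 2.98 FPKM. The libraries high in Cpap3-d were those high in apd-3l, at a level per length that was lower by orders of magnitude. The pupae lay between 0.14 and 0.60 FPKM and the day 120 libraries at or below 0.30 FPKM.

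Cpap3-b, the other Cpap3 gene, had a different course. The late pupae had 22.1, 30.1, 16.0 and 17.2 FPKM (mean 21.3 ± 6.38, SD, n = 4), above every adult library. The day 10 duelers had 2.05, 0.07, 0.29, 2.66 and 0.18 FPKM, and the day 10 workers had 0.55, 0.87, 3.41 and 0 FPKM. No day 20 library exceeded 0.44 FPKM, which was at most 7 reads, and no day 120 library exceeded 0.24 FPKM. Among adults, then, the day 10 libraries held all values above 0.5 FPKM.

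CPR1 was at 5.40, 14.9, 7.91, 8.92 and 8.29 FPKM in the day 10 duelers and at 0.58, 0.91, 1.80 and 1.18 FPKM in the day 10 workers, with no overlap. The duelers with little apd-3l had 14.9 and 8.29 FPKM of CPR1, beside 5.40, 7.91 and 8.92 FPKM in the others. The day 20 gamergates had 8.71, 1.59, 9.08, 4.13 and 7.89 FPKM, against 2.24, 1.01, 2.71 and 1.35 FPKM in the day 20 workers. All but 1 of the gamergate libraries lay above all 4 workers, the exception being replicate 2. The dominant gamergates of day 120 had a lowest value of 0.562, a median of 1.48 and a highest of 2.19 FPKM, and the hunting workers 0.367, 0.818 and 4.04 FPKM. At that age the ranges overlapped. The late pupae had 0.45, 0.19, 1.03 and 0.55 FPKM, from 2 to 11 reads each, so the low values of this gene carry a large counting error.

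CPR5 was found in every library and varied least. The late pupae were lowest, at 2.49 to 3.25 FPKM (2.92 ± 0.373, SD, n = 4). The day 10 duelers lay between 5.37 and 7.40 FPKM, while the day 10 workers had 27.7, 7.28, 12.3 and 5.13 FPKM. At day 20 the gamergates spanned 3.65 to 6.44 FPKM and the workers 4.47 to 6.22 FPKM. At day 120 the dominant gamergates spanned 3.46 to 5.35 FPKM and the hunting workers 3.54 to 5.67 FPKM. Worker replicates 1 and 3 of day 10 stood above all other libraries.

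Ordered by median, neighbouring groups had overlapping ranges for apd-3l, Cpr97Ea, Cpap3-d and CPR1 at every step. The exceptions were Cpap3-b, where the pupae lay above the next group, day 10 workers, and CPR5, where the pupae lay below the next group, hunting workers. The group with the highest median was day 10 workers for apd-3l (7709 FPKM), Cpap3-d (17.0 FPKM) and CPR5 (9.77 FPKM), day 10 duelers for Cpr97Ea (65.9 FPKM) and CPR1 (8.29 FPKM), and late pupae for Cpap3-b (19.7 FPKM).

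Caste was compared within days. At day 20, where both castes shared a run, none of the 6 genes passed the test between gamergates and workers. Fits used limma on log2(FPKM + 0.5), a scale that understates differences of low genes, with Benjamini-Hochberg adjustment over 9986 genes, and a call means adjusted p under 0.05. In that comparison 0.01% of the genes tested were called, which was 1 gene, and 215 had an unadjusted p under 0.05. CPR1 averaged 6.28 ± 3.28 FPKM in gamergates (SD, n = 5) and 1.83 ± 0.785 FPKM in workers (SD, n = 4), a log2 difference of 1.41 (SE 0.41, limma adjusted p = 1). An exact two-sided permutation test of CPR1 alone, added after its values were seen, gave p = 0.0476 over 126 arrangements, and 0.0952 after adjustment for the 2 caste comparisons so tested. apd-3l differed by 2.01 (SE 1.75), Cpap3-d by 1.16 (SE 0.97) and Cpr97Ea by 0.99 (SE 1.10), each with adjusted p = 1. For each of these 3 genes 2 SE on either side of the difference took in 0.

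At day 120 none of the 6 genes was called between dominant gamergates and hunting workers, in a comparison where 0.0601% of genes were called (0.0401% lower) and 1440 had an unadjusted p under 0.05. CPR1 averaged 1.44 ± 0.572 FPKM in dominant gamergates (n = 6) and 1.20 ± 1.14 FPKM in hunting workers (n = 9), a log2 difference of 0.37 (SE 0.34, limma adjusted p = 0.57). The exact permutation test within runs, added like the other, gave p = 0.35 over 1260 arrangements. The difference was 0.09 in run 1, which held 1 dominant gamergate library, and 0.46 in run 4. The caste difference of CPR1 at day 120 minus that at day 20 was -1.03 (SE 0.53, limma adjusted p = 0.663), and none of the 9986 genes passed this test, with 646 at an unadjusted p under 0.05. The day 10 difference of CPR1, which had drawn attention to the gene, was 2.55 (SE 0.41), from means of 9.08 ± 3.51 FPKM in duelers and 1.12 ± 0.516 FPKM in workers. In that contrast 0.02% of the genes were called.

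Ages were compared within each caste. These tests share the day 10 or day 120 libraries with the contrasts that had drawn attention to apd-3l, Cpr97Ea and Cpap3-d, so they are not independent of the choice. The same may hold for Cpap3-b and CPR5, whose choice was not recorded. CPR1 had been chosen on day 10 duelers against day 10 workers, so its tests against day 10 are not independent of the choice either. Age, run and, in the oldest workers, hunting cannot be told apart. In workers at day 20 against day 10, 4 of the 6 genes were lower, where 9.49% of all genes were called lower and 21.4% in either direction. apd-3l, Cpr97Ea and Cpap3-d had been chosen on these day 10 workers and passed the filter through the groups where they were high. A fall from day 10 was thus partly fixed by the choice, and the count is no result about the 6 genes. apd-3l averaged 276 ± 450 FPKM at day 20 and 10583 ± 11398 FPKM at day 10 (n = 4 each), a log2 difference of -5.50 (SE 1.84, limma adjusted p = 0.0304). Cpr97Ea averaged 0.510 ± 0.582 FPKM at day 20 and 88.7 ± 102 FPKM at day 10, a difference of -5.24 (SE 1.16, limma adjusted p = 0.00141). Its day 20 values all lay below its day 10 values.

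Cpap3-d and CPR5 made up the other worker calls. Cpap3-d averaged 0.944 ± 1.36 FPKM at day 20 and 21.5 ± 21.8 FPKM at day 10, a log2 difference of -3.28 (SE 1.02, limma adjusted p = 0.0198). CPR5 averaged 5.00 ± 0.820 FPKM at day 20 and 13.1 ± 10.2 FPKM at day 10, a difference of -1.04 (SE 0.26, limma adjusted p = 0.00399). The calls of apd-3l and Cpap3-d were lost on leaving out any 1 of day 10 worker replicates 1, 2 and 3 or of day 20 worker replicates 1 and 3. Without day 10 worker replicate 3 the adjusted p was 0.128 for apd-3l (-4.54) and 0.116 for Cpap3-d (-2.53), while Cpr97Ea and CPR5 kept their calls in all 8 such fits. CPR5 was not called on the TPM scale (-0.70, adjusted p = 0.065), which is free of the authors' read total. With limma-voom on recovered reads, Cpr97Ea (adjusted p = 0.116) and Cpap3-d (0.201) were not called, and in a fit of the worker groups alone Cpr97Ea was the 1 gene called. The differences of Cpap3-b (-0.88, adjusted p = 0.137) and CPR1 (0.51, adjusted p = 0.43) did not pass, but without day 10 worker replicate 4, which had no Cpap3-b read, Cpap3-b was called (-1.34, adjusted p = 0.0161).

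Between day 20 gamergates and day 10 duelers, 1 of the 6 genes was called, where 11.7% of all genes were lower and 25.8% were called in either direction. Cpr97Ea averaged 2.33 ± 2.83 FPKM in the gamergates and 52.9 ± 53.6 FPKM in the duelers (n = 5 each), a log2 difference of -3.12 (SE 1.04, limma adjusted p = 0.0257). This call was lost without dueler replicate 1, 3 or 4 or gamergate replicate 1, 3 or 4, with adjusted p-values from 0.0514 to 0.0963, with limma-voom (0.141) and in a fit of these groups alone (0.145). apd-3l differed by -1.51 (SE 1.65, adjusted p = 0.531) and Cpap3-d by -0.96 (SE 0.91, adjusted p = 0.467), with overlapping ranges. Cpap3-b (-0.77, adjusted p = 0.135) passed once dueler replicate 2 was left out (-1.03, adjusted p = 0.0423).

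At day 120 against day 20, apd-3l was lower in both castes. In hunting workers at day 120 it averaged 0.210 ± 0.217 FPKM (n = 9), against 276 ± 450 FPKM in day 20 workers (n = 4), a log2 difference of -6.84 (SE 1.57, limma adjusted p = 0.00526). It was the only one of the 6 genes called there, where 4.72% of all genes were lower and 10.1% were called in either direction. In dominant gamergates at day 120 it averaged 0.154 ± 0.240 FPKM (n = 6), against 1209 ± 1221 FPKM in day 20 gamergates (n = 5), a difference of -8.84 (SE 1.65, limma adjusted p = 0.000563). In both castes every day 120 library lay below every day 20 library. However, apd-3l had been chosen with a day 120 contrast, and it reached 1 FPKM in no day 120 library. A low day 120 level was thus partly fixed by the choice, and these calls are no independent result.

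CPR1 was lower as well in the gamergate comparison, at 1.44 ± 0.572 FPKM in day 120 dominant gamergates against 6.28 ± 3.28 FPKM in day 20 gamergates, a log2 difference of -1.61 (SE 0.39, limma adjusted p = 0.0035). All but 1 of the 5 day 20 libraries lay above all 6 day 120 libraries. In this comparison 16.3% of all genes were lower and 33.7% were called in either direction. Cpap3-d (-2.16, SE 0.92, adjusted p = 0.0648) missed the threshold here and passed without day 20 gamergate replicate 1 (adjusted p = 0.0417) or 3 (adjusted p = 0.0439), on the TPM scale (-3.34, adjusted p = 0.0454) and with a pseudocount of 0.1 (-3.33, adjusted p = 0.0397). The workers' CPR1 difference, hunting workers at day 120 minus day 20 workers, was -0.58 (SE 0.37, adjusted p = 0.325). The day 120 libraries had also served to choose members, so these CPR1 tests may not be independent of the choice.

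**Figure D2:**
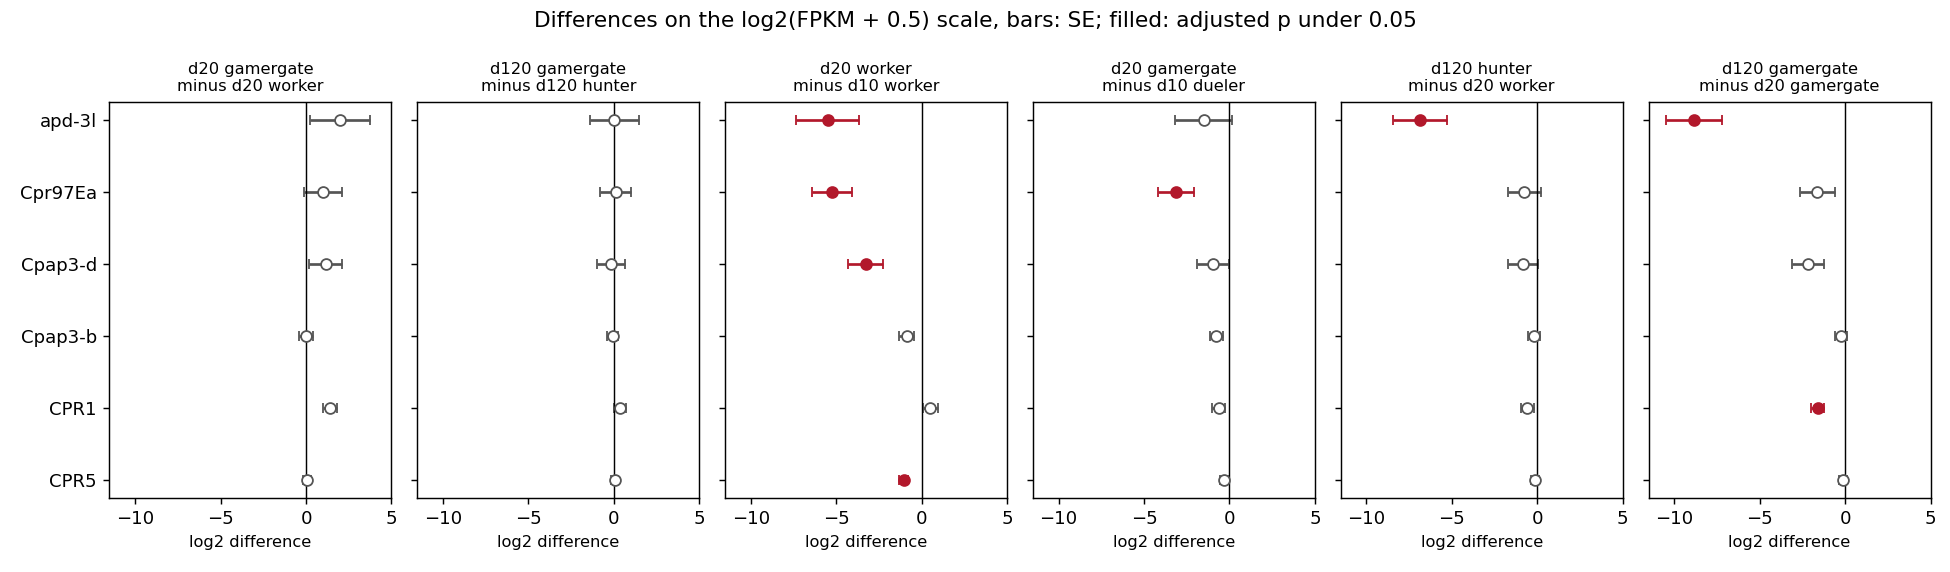
Log2 differences of FPKM + 0.5 (x axis) with 1 SE (bars) for each gene (rows) in the 6 tested comparisons named above the panels; filled symbols have adjusted p under 0.05. No symbol is filled in the caste panels, and apd-3l lies farthest below 0 in both day 120 against day 20 panels (-6.84 in workers, -8.84 in gamergates).

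The contrasts behind the choice had these values. In hunting workers at day 120 against day 10 workers, the log2 difference was -12.34 for apd-3l, -5.99 for Cpr97Ea, -4.11 for Cpap3-d, -1.06 for Cpap3-b, -0.07 for CPR1 and -1.16 for CPR5, where 24.6% of all genes were called. In dominant gamergates at day 120 against day 10 duelers it was -10.35, -4.73, -3.13, -1.01, -2.24 and -0.43 in the same order of genes, where 25.1% of all genes were called. In late pupae against day 10 workers it was -10.65, -5.22, -3.79, 4.03, -0.62 and -1.72, where 57.3% were called, 30.6% higher and 26.8% lower. Cpap3-b was the gene of the 6 with a positive value there.

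The 6 genes did not vary as 1 block. Over the 18 day 10 and day 20 libraries, Pearson's r of log2(FPKM + 0.5) was 0.978 between apd-3l and Cpap3-d, 0.861 between apd-3l and Cpr97Ea and 0.901 between Cpr97Ea and Cpap3-d. With the 4 group means subtracted the values were 0.970, 0.846 and 0.905, so these 3 genes varied together among libraries of the same caste and day. Cpap3-b followed apd-3l less closely (0.680, or 0.614 within groups). CPR5 (0.371, or 0.099 within groups) did not follow it. The r of CPR1 with apd-3l was negative (-0.268, or -0.544 within groups). These correlations describe 18 libraries in which the genes share library, depth and run, and they carry no test.

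**Figure D3:**
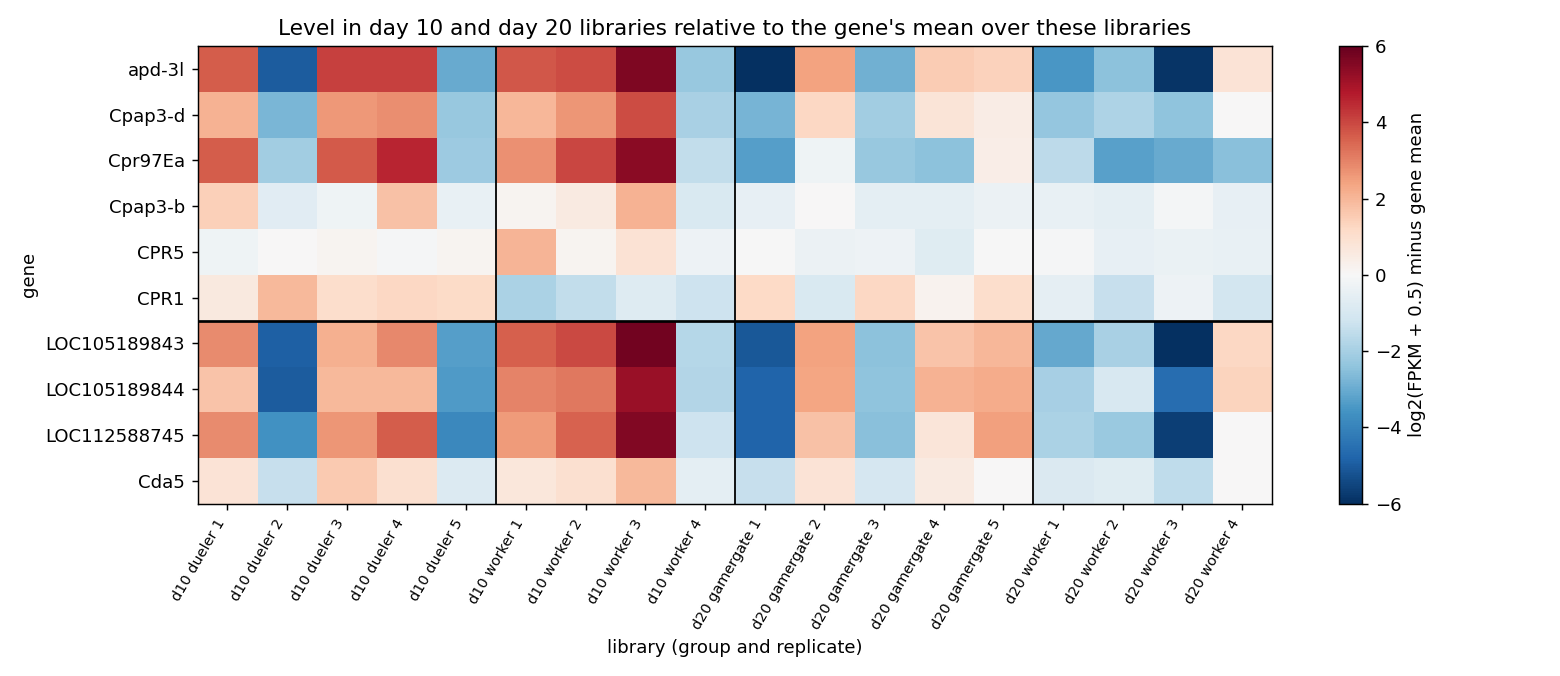
Level of each gene (rows) in each of the 18 day 10 and day 20 libraries (columns, replicates numbered), as log2(FPKM + 0.5) minus the gene's mean over these libraries (colour, saturating at 6); the lower 4 rows are genes whose pattern is like that of apd-3l. Dueler replicates 2 and 5 and worker replicate 4 of day 10 are low in apd-3l, Cpap3-d, Cpr97Ea and the lower 4 rows together, and CPR1 is high in duelers.

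Over all 37 libraries the 3 genes most like apd-3l were LOC105189843 (r = 0.995), LOC112588745 (0.989) and LOC105189844 (0.988), none of which has a symbol in the reference. LOC105189843 reached 26479 FPKM and LOC105189844 reached 12835 FPKM in day 10 worker replicate 3. LOC112588745 reached 51837 FPKM in that library and was the highest gene of all in 6 libraries. LOC105189843 and LOC105189844 are annotated next to each other on a sequence other than that of LOC112588745. Within the day 10 and day 20 groups their r with apd-3l was 0.993, 0.972 and 0.994 in the order LOC105189843, LOC112588745, LOC105189844. Over the 18 young libraries alone, Cpap3-d (0.978) and Cda5 (0.978), a chitin deacetylase by its symbol, came after LOC105189843 (0.985).

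Cpr97Ea was most like LOC105188105 (r = 0.979 over 37 libraries), LOC105184999 (0.976) and LOC105182302 (0.973), and Cpap3-d most like LOC105186377 (0.967), geko (0.963), named after a Drosophila gene of olfactory behaviour, and LOC105187878 (0.962). Cpap3-b was most like LOC109503583 (0.939), rho-6 (0.929) and Trmt61 (0.925), a list that rests on the pupae, since within the young adult groups the r of these genes was 0.474, 0.097 and 0.251. CPR1 and CPR5 had no gene at r of 0.9 or more, against 8 genes for apd-3l, 20 for Cpr97Ea, 23 for Cpap3-d and 17 for Cpap3-b. CPR5 was most like LOC105189225 (0.855), LOC105189961 (0.776) and CPR27 (0.766), a further gene of the CPR family.

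CPR1 was most like LOC105182120 (r = 0.700), LOC105182419 (0.675) and LOC112588647 (0.673) over all libraries. Over the 18 young libraries it was most like LOC105183405 (0.748), ITP (0.737), the ion transport peptide gene, and ILP-2 (0.713), an insulin-like peptide gene. ILP-2 averaged 45.0 ± 18.7 FPKM in day 20 gamergates and 7.99 ± 1.31 FPKM in day 20 workers, and 19.8 ± 4.96 FPKM in day 10 duelers against 11.4 ± 1.24 FPKM in day 10 workers. With group means subtracted its r with CPR1 was 0.785. The highest r of CPR1 was lower than the highest r of each of the other 5 genes, in both sets of libraries. The genes named as most like depended on the measure, as only 3 of the 18 named over 37 libraries were kept with Spearman's rho and 6 without the pupae.

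The genes' places in the reference annotation gave neighbours with like and unlike patterns. Cpap3-d and Cpap3-b lie on 1 sequence with 2 annotated genes between them, LOC105191835 and LOC105191834. LOC105191835 was the gene most like Cpap3-b over the 18 young libraries (r = 0.904), and LOC105191834 followed both Cpap3-b (0.882) and Cpap3-d (0.877) there and reached 31.5 FPKM in day 10 worker replicate 3. Next to apd-3l, LOC105189611 followed it (0.881) at no more than 4.12 FPKM, and LOC105189612 beyond it did not (0.283) although it reached 33.6 FPKM. Cpr97Ea is flanked by LOC105188023 (0.940), whose highest level was 4.08 FPKM, and by CPR27 (0.275). Next to CPR1, SMC6, a gene of chromosome maintenance, had r = 0.033. Neighbours of 1 family can be close in sequence, and how shared reads were assigned is not known, which leaves the levels of such genes uncertain.

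The cuticle structure list, drawn from symbols, held 19 measured genes, of which the 6 are members. Of the other 13, 5 passed the filter, 4 stayed under 1 FPKM in every library and 2 reached 5 FPKM anywhere, CPR14 and Gasp. The median level was highest in the pupae for 6 of the 13. CPR14 was at 15.4 to 40.5 FPKM in day 120 dominant gamergates and 12.6 to 124 FPKM in hunting workers, well above the levels of apd-3l there. Gasp, which encodes a chitin-binding protein of the Drosophila tracheal wall, was at 1.64 to 61.9 FPKM in pupae and lower in day 20 gamergates (0.166 ± 0.227 FPKM) than in day 10 duelers (1.26 ± 0.802 FPKM), by a log2 difference of -1.33 (SE 0.50, limma adjusted p = 0.0459). Cpr92F was higher at day 120 than at day 20 in workers (0.65, adjusted p = 0.00257, where 5.39% of all genes were higher) and in gamergates (0.68, adjusted p = 0.00139, where 17.4% were higher), opposite in sign to apd-3l.

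Genes that make and modify chitin were described with them. Of 14 measured, 1 was higher and 4 were lower in day 20 than in day 10 workers, where 11.9% of all genes were higher and 9.49% lower, with a median log2 difference of -0.57 beside -0.04 for all genes. The lower 4 were Cda5 (-1.55, limma adjusted p = 0.0356), fdl, named after a Drosophila hexosaminidase (-0.40, adjusted p = 0.0208), and serp (-1.86, adjusted p = 0.023) and verm (-1.61, adjusted p = 0.000783), whose Drosophila counterparts are chitin deacetylases secreted into the tracheal lumen. Gnpnat, an enzyme on the way to the chitin precursor, was higher (0.78, adjusted p = 0.0189). In day 20 gamergates against day 10 duelers 3 were lower, Hexo1 (-0.60, adjusted p = 0.0413), fdl (-0.41, adjusted p = 0.0073) and verm (-0.96, adjusted p = 0.0185), where 11.7% of all genes were lower, with a median of -0.38 beside -0.03 for all genes. At day 120 against day 20, fdl was higher in workers (0.46, adjusted p = 0.00559), and Gfat2 (0.43, adjusted p = 0.0201) and the chitin synthase gene kkv (0.78, adjusted p = 0.049) were higher in gamergates, where 5.39% of all genes were higher in the worker comparison and 17.4% in the gamergate comparison. No member was called between castes at day 20 or day 120.

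Cda5, serp, Cht7 and verm varied with apd-3l over the 18 young libraries, with r of 0.978, 0.915, 0.905 and 0.845. They are the 4 of the 14 chitin genes with r of at least 0.8, a value reached by 55 of 9985 genes tested, whose median r was 0.030. Their levels were far lower, at most 7.39 FPKM for Cda5 and 58.6 FPKM for verm in day 10 workers. Over all 14 chitin genes the median r was 0.591, and the lowest were Gnpnat (-0.469), nst (0.034) and mmy (0.058).

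The list of 8 tanning genes, which harden and darken cuticle, had no call at day 20 against day 10 in either caste. In it, black, which serves the synthesis of beta-alanine, was higher at day 120 than at day 20 in workers (0.81, limma adjusted p = 0.00148) and in gamergates (0.70, adjusted p = 0.00342), and rk, the bursicon receptor gene, was higher in gamergates (0.53, adjusted p = 0.026). Of 16 moulting hormone genes tested, ETHR, the receptor of ecdysis triggering hormone, was lower at day 20 than at day 10 in workers (-0.60, adjusted p = 0.00151) and in the gamergate comparison (-0.39, adjusted p = 0.0152), and Eip74EF was lower in workers (-0.47, adjusted p = 0.0331). The ecdysone receptor gene Ecr was higher in day 20 gamergates than in day 10 duelers (0.56, adjusted p = 0.00666). At day 120 against day 20, E75 (0.55, adjusted p = 0.0155) and the juvenile hormone response gene Kr-h1 (2.61, adjusted p = 0.000296) were higher in workers, and br was higher (0.88, adjusted p = 0.0301) and Eth lower (-1.67, adjusted p = 0.000736) in gamergates. Kr-h1 was lower in dominant gamergates than in hunting workers (-1.97, adjusted p = 0.04). None of the 16 had r of 0.8 or more with apd-3l. The share of all genes called in either direction was 21.4% in workers at day 20 against day 10, 25.8% in day 20 gamergates against day 10 duelers, 10.1% in workers at day 120 against day 20, 33.7% in gamergates at day 120 against day 20 and 0.0601% between castes at day 120. Against these shares stood 2, 2, 2, 2 and 1 of the 16 moulting hormone genes and 0, 0, 1, 2 and 0 of the 8 tanning genes, so that the counts of the age comparisons were few and are no result about these lists.

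The summed level of tracheal and epidermal markers varied with apd-3l among the day 10 and day 20 libraries, while single markers followed it to differing degrees. Of 28 listed genes none was at 0 in every library, 16 had a mean under 1 FPKM and 9 passed the filter. Their summed level was 85.8 to 337 FPKM in late pupae, 45.6 to 89.4 in day 10 duelers, 45.0 to 141 in day 10 workers, 33.6 to 58.3 in day 20 gamergates, 35.7 to 40.9 in day 20 workers, 37.5 to 44.7 in dominant gamergates and 38.0 to 47.2 FPKM in hunting workers. Over the 18 young libraries this sum had r = 0.853 with apd-3l (0.851 with group means subtracted), and 0.700 for the 25 genes held by no other list. Of the 9 genes tested, 2 had r of at least 0.8, serp and verm, both also among the chitin genes. The median r of the 9 was 0.675, and crb (0.365) and vvl (0.403) followed apd-3l least. At day 120 against day 20 the median log2 difference of the 9 was -0.03 in workers and 0.03 in gamergates, while apd-3l was far lower in both. In day 20 against day 10 workers 3 of the 9 tested were lower, where 9.49% of all genes were lower. They were vvl, a factor of tracheal development in Drosophila (-0.58, limma adjusted p = 0.00384), serp and verm, and crb was higher in day 120 than in day 20 gamergates (0.48, adjusted p = 0.0451), where 17.4% of all genes were higher. Late pupa replicates 2 and 3 had the highest sums, 337 and 306 FPKM, with 50.4 and 1.05 FPKM of apd-3l. Replicates 1 and 4, with sums of 85.8 and 102 FPKM, lay within the range of day 10 workers. They had 0 and 0.17 FPKM of apd-3l.

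**Figure D4:**
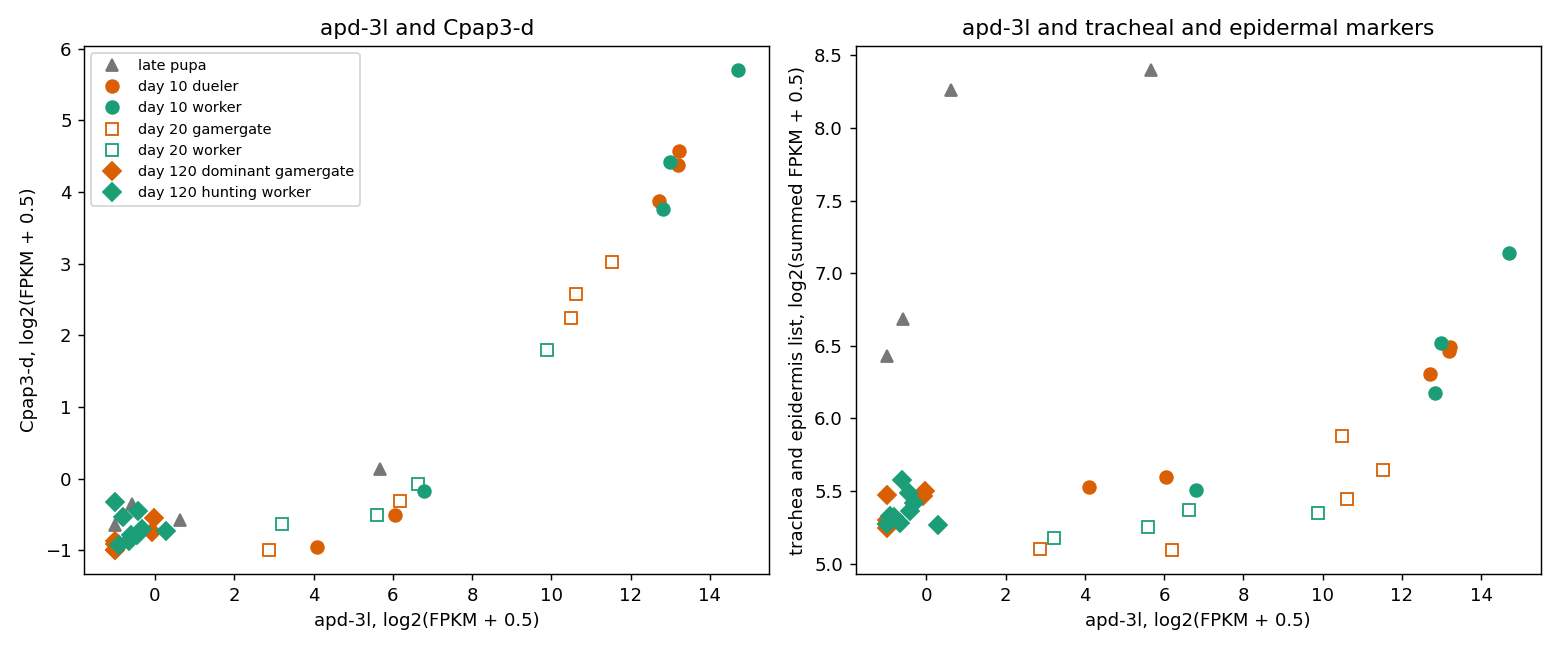
Each of 37 libraries (points, symbols by group) by apd-3l as log2(FPKM + 0.5) on the x axis, against Cpap3-d on the same scale (left) and against the summed FPKM + 0.5 of 28 tracheal and epidermal markers, log2 (right). Day 10 and day 20 libraries rise together in both panels (r = 0.978 and 0.853 over 18 libraries). In the right panel late pupa replicates 2 and 3 lie highest, and replicate 2 lies to the right of the other pupae.

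Sums of other marker lists followed apd-3l less over the same 18 libraries, with r of 0.509 for 12 muscle markers, 0.507 for 10 glia markers, 0.159 for 12 neuron markers and -0.073 for 9 fat body and hemocyte markers. The last sum was mostly Tsf1 (mean 2154 FPKM, r = -0.169). The 9 single genes of that list ranged from r = -0.232 (Hex110) to 0.605 (Col4a1), with a median of 0.014. The muscle sum ran from 62.0 to 957 FPKM in day 10 duelers and from 82.4 to 666 FPKM in day 10 workers, and the glia sum from 950 to 1150 FPKM in duelers and 981 to 1249 FPKM in workers. In day 20 against day 10 workers, the called members of these lists were lower: 1 of 11 muscle genes tested (TpnT), 2 of 10 glia genes (moody and Gat-1B), 3 of 12 neuron genes (nSyb, Syx1A and Snap25) and 1 of 9 fat body and hemocyte genes (Col4a1), beside 9.49% of all genes. Between day 20 gamergates and day 10 duelers, 2 muscle, 3 glia and 1 fat body gene were lower, beside 11.7% of all genes. In gamergates at day 120 against day 20 the called members were higher. They were 5 glia, 4 fat body and 1 neuron gene, beside 17.4% of all genes called higher. In workers at day 120 against day 20 only Col4a1 was called, and it was lower, beside 4.72% of all genes. No muscle, glia, neuron or fat body marker was at 0 in every library. The part of these cell types in the levels of the cuticular protein genes was not tested. In whole dissected tissue, fewer cells of a type and less RNA per cell cannot be told apart.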

How the data were processed

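Central brains, dissected free of the optic lobes, gnathal ganglion and most of the antennal lobes, gave strand-specific polyadenylated RNA libraries, per the labels' protocols. The authors deposited FPKM per gene in 1 table. They used bcl2fastq, STAR and featureCounts, per the submitters' processing notes. Tool versions, the strand setting and the build were not given in the sources used here, and coordinates are left out. The reference table (assembly Hsal_v8.6) served for names and neighbours and matched 13989 of 14001 identifiers. Of these, 4117 had a symbol, and lists were drawn by symbol, with 4 symbols of other genes removed.

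Whole reads were recovered from FPKM steps for 13445 of 13445 genes above 0 (tolerance 0.1 read), which gave 9.2 to 55.78 M reads per library. The read total behind the FPKM differed from the gene reads by a factor that varied 1.56-fold between libraries.

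The test was limma 3.58.1 (R 4.3.3, lmFit and eBayes with trend), run on log2(FPKM + 0.5) over 9986 genes with at least 1 FPKM in at least 4 libraries. The fit took in the 37 libraries, with a mean for each group and a run term at day 120. Runs were inferred from a batch number in the labels' internal references, which the labels do not explain. The fit was run on simulated counts for the day 20 caste comparison alone, with the same spread setting for every gene and group. The age comparisons, and the wide spread within groups seen here, were not checked in that way. Exact permutation tests used scipy 1.17.1. Besides the 6 genes, the text names the 3 genes most like each, annotated neighbours, and called list members (by rule up to 5 a direction with a mean of at least 2 FPKM in the higher group, and some of lower level). The highest 3 by mean FPKM were Idgf4, verm and Gfat2 for chitin genes, ple, Ddc and rk for tanning, Eip93F, E75 and usp for moulting hormones, verm, vvl and shg for tracheal and epidermal markers, Mlc1, Tm1 and Mlc2 for muscle, Gs2, Eaat2 and Gat-1B for glia, cpx, nSyb and Snap25 for neurons, and Tsf1, apolpp and FASN1 for fat body and hemocytes.

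The genes and lists were chosen with earlier results of these data known. The p-values reflect the spread among the libraries at hand, which may be partly technical. Alternatives were other pseudocounts, filters, scales and fits, and each library left out.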

Additional observations from a re-analysis of the deposited data

Results flagged for a closer look

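Among 42 sets of values (6 genes in 7 groups), 6 held a library whose gap to its nearest neighbour was large for the range of the group, by Dixon's criterion at the 95% level. Chance alone gives about 1 such set in 20 where values are normally distributed. The criterion was applied to FPKM without logs, which have long upper tails, and each of the 6 libraries was the highest of its group. That rate therefore need not hold here, and the number of sets is not read as an excess. For apd-3l these were late pupa replicate 2, at 50.4 FPKM, day 20 worker replicate 4, at 949 FPKM, and day 120 hunting worker replicate 3, at 0.721 FPKM. Day 20 worker replicate 4 also stood above its group for Cpap3-d, at 2.98 FPKM. CPR1 was at 4.04 FPKM in day 120 hunting worker replicate 7, and CPR5 at 6.22 FPKM in day 20 worker replicate 1. The 0.721 FPKM of apd-3l in the hunting worker came from 30 reads and is low on the scale of this gene.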

How the results depend on the processing

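None of the 6 genes was called in the caste comparisons at days 20 and 120, or in the comparison of the 2, under any alternative run. In workers at day 20 against day 10, 4 genes were called, against 2 with limma-voom on recovered reads, 1 with only the groups of the comparison in the fit, and 2 to 5 with 1 library left out. In day 20 gamergates against day 10 duelers 1 was called, against 0 with limma-voom, 0 with only the compared groups, and 0 to 2 with 1 library left out. Voom lost the calls of Cpr97Ea (adjusted p = 0.116) and Cpap3-d (0.201) in workers and of Cpr97Ea in the gamergate comparison (0.141). With only the compared groups, apd-3l (0.0615), Cpap3-d (0.0708) and CPR5 (0.116) were lost in workers, and Cpr97Ea (0.145) in the gamergate comparison. At unchanged differences, the SE in workers went from 1.84 to 1.74 for apd-3l and from 1.02 to 1.09 for Cpap3-d. For CPR5 it went from 0.258 to 0.413, and for Cpr97Ea in the gamergate comparison from 1.04 to 1.38. Such a fit holds fewer samples, and the cause of the losses was not tested. At day 120 against day 20, 1 gene in workers was called in every fit that left out a library, and 2 to 3 in gamergates. Of the 18 genes named as most like the 6 over all libraries, 6 were kept without late pupae and 3 with Spearman's rho. Each of the 6 genes kept its group of highest median on the TPM scale. A fit of only the compared groups gave no value for Cpr97Ea between castes at day 20, for Cpap3-b at day 20 against day 10, or for Cpap3-b, Cpr97Ea and Cpap3-d at day 120 against day 20, since these genes missed the filter within those groups. Counts under about 10 reads limit Cpap3-b at days 20 and 120 and in some day 10 libraries. They also limit Cpr97Ea and most Cpap3-d values at day 120, and the lowest values of CPR1.

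Whether replicate numbers pair the samples is not known. Deviations of same-numbered libraries from their group means had r of 0.0993 to 0.45 between castes at day 20 and from -0.091 to 0.239 at day 120. In the age comparisons r ran from -0.344 to 0.437. With the replicate block, 0 genes were called in hunting workers at day 120 against day 20 workers (apd-3l -6.80, adjusted p = 0.0802) and 0 in day 20 gamergates against day 10 duelers (Cpr97Ea, adjusted p = 0.0563), and apd-3l in workers at day 20 against day 10 had adjusted p = 0.0662.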
